A study of Mus musculus with 10 samples.

Results

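Vascular smooth muscle and pericytes were followed in the mouse cochlea through 10 genes, chosen by name. Acta2, Myh11, Tagln, Cnn1, Smtn and Mylk encode proteins of the contractile apparatus of smooth muscle, and Pdgfrb, Rgs5, Cspg4 and Notch3 are widely used to mark pericytes. All 10 were among the 54532 genes counted, and all 10 were among the 18329 genes with enough reads to be tested. Smooth muscle cells wrap arteries and arterioles and set the width of the vessel, and pericytes sit on capillaries. Together they are called mural cells. In the cochlea, mural cells line the spiral modiolar artery and its branches and the dense capillary bed of the stria vascularis, the tissue that secretes endolymph. Endothelial PDGF-B recruits mural cells through the receptor PDGFRB, and NOTCH3, which is activated by JAG1 on endothelial cells, helps to keep arterial smooth muscle mature.

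Cochleae came from mtKeima mice, which carry a fluorescent reporter of mitophagy in both groups, at the age of 12 months. The 5 NR-treated mice drank water with nicotinamide riboside (NR), a precursor of NAD+, at 7 mg/ml (24 mM), begun at 2 months of age and kept up for 10 months. The 5 non-treated mice, which the counts call Vehicle, drank regular water. Each mouse gave 1 library of poly(A) RNA from whole cochlear tissue, so a lower number of mural cells and less RNA per mural cell cannot be told apart.

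Total counts lay between 17060379 and 24419230 per library. The labels give the mice as female and the methods of the study as male, and the Y-linked gene Ddx3y stood between 64.5 and 85.0 CPM (counts scaled to the size of the library) in all 10 libraries. Coch, the most abundant cochlear marker, lay between 2116 and 4207 CPM, and none of the 14 cochlear markers was at 0 in all mice. Summed over 17 skeletal muscle genes, NR-treated mice 3 and 5 reached 1197 and 1050.0 CPM, against 92.0 to 195 CPM in the other 8 mice. Non-treated mouse 2 stood apart by genes of mucous and serous glands. The sum of 15 such genes, a list written after their values were seen, was 54329 CPM there, 27.1 to 63.2 CPM in the other 4 non-treated mice and 109.8 to 4720.1 CPM in NR-treated mice. Results on the members that change without these 3 libraries are given with and without them.

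Smooth muscle genes are classically switched on by serum response factor at CArG boxes near their start sites, so 300-base promoters from RefSeq (GRCm38.p6), running from 250 bases before to 50 bases after a gene's start, were read for the members. Of the 10 members, 7 had an entry, and Myh11, Tagln and Pdgfrb had none. The start used for Smtn and for Mylk lies inside the gene as the counts delimit it, so these windows belong to an internal start. The start used for Cnn1 lies slightly inside that gene as counted, and that for Acta2 slightly upstream of it. Positions below are counted from the RefSeq start and not from the end of the gene in the counts. The promoters of Acta2 and Cnn1, whose levels moved together between mice, and of Smtn, whose level did not move with theirs, are shown for comparison. Capitals mark matches to a CArG box in which 1 of the middle A or T bases is changed and to the MCAT motif CATTCC, the site of TEAD factors, on either strand. Acta2 lies at chr19:34255324-34255623 on the minus strand, Cnn1 at chr9:22099003-22099302 on the plus strand and Smtn at chr11:3539243-3539542 on the minus strand.
Acta2: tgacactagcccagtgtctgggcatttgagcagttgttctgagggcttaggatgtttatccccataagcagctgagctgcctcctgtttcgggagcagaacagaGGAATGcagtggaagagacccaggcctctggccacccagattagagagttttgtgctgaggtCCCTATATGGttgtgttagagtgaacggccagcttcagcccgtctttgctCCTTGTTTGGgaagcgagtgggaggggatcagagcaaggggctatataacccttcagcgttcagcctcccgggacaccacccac
Cnn1: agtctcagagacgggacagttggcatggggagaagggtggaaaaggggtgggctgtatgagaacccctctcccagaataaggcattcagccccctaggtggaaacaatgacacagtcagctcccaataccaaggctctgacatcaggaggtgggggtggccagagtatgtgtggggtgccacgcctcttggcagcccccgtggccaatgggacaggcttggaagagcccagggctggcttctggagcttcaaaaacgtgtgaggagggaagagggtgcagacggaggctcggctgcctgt
Smtn: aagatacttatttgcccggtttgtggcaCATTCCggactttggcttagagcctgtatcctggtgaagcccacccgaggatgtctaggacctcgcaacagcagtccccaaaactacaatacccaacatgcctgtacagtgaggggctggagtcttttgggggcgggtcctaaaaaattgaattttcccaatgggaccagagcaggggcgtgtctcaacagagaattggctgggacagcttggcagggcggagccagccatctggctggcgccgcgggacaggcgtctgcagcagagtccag
In the Acta2 promoter the changed CArG boxes CCCTATATGG and CCTTGTTTGG began at positions -84 and -34 from the RefSeq start, where -1 is the base before it. The MCAT motif lay on the opposite strand at -146. Smtn held an MCAT motif at -222 and Cnn1 held none of the motifs in this window. Mylk was the only other member with a match, an MCAT motif at -158. No member's window held a CArG box with only A or T in the middle, or the motif GTGGGAA of RBPJ, the DNA-binding partner of Notch. The word changed describes the letters only, and binding was not tested. Sites outside these windows were not searched. Of 32851 promoters of this length in RefSeq, 1.63% held a CArG box, 8.50% the changed box, 14.7% the MCAT motif and 6.38% the RBPJ motif, each counted on both strands and with overlaps allowed. The changed box was added after the promoters had been read.

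Levels were compared between genes per kilobase of exon, over all 10 mice. Rgs5, a regulator of G protein signalling that is high in pericytes, led with 27.9 ± 2.80 CPM per kilobase (SD). It was followed by Acta2, smooth muscle actin, at 24.2 ± 7.15, the PDGF receptor Pdgfrb at 20.02 ± 1.32 and Smtn at 19.2 ± 3.57 CPM per kilobase. The ranges of these neighbours overlapped, and Rgs5 was above Acta2 in 6 of 10 mice, Acta2 above Pdgfrb in 7 and Pdgfrb above Smtn in 5. A gap came next. Notch3 stood at 5.07 ± 0.348 CPM per kilobase, below Smtn in all 10 mice, and Mylk at 4.16 ± 0.425, below Notch3 in 9. Myh11 at 2.72 ± 0.804 lay below Mylk in all 10 mice although their ranges over mice overlapped, and Cspg4 at 1.67 ± 0.170 lay below the whole range of Myh11. Cnn1 at 0.684 ± 0.584 and Tagln at 0.389 ± 0.145 CPM per kilobase closed the order, with Cnn1 the higher in 6 of 10 mice. Tagln was divided by all its 1988 exonic bases, of which only 639 are shared with no other gene. Reads from the shared bases cannot be assigned, so its value may be too low and its place below Cnn1 is not settled. In arteries, both Acta2 and Tagln are known to be abundant. Tagln rested on 9 to 28 reads per library, with wide counting error, and Cnn1 on 13 to 53 in 9 libraries and on 135 in non-treated mouse 2.

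Acta2 (chromosome 19, 34241090 to 34255336 of mm10, minus strand) encodes the actin of the contractile filaments. In NR-treated mice 1 to 5 it stood at 56.5, 35.3, 51.6, 51.8 and 35.1 CPM, and in non-treated mice 1 to 5 at 32.7, 66.9, 38.8, 26.6 and 36.5 CPM. Non-treated mouse 2 was the highest of all 10 and mouse 4 of the same group the lowest, so the NR-treated values lay inside the range of the other group. The log2 fold change, NR-treated over non-treated, was 0.19 (SE 0.24) with an adjusted p of 0.797 in edgeR's quasi-likelihood test, and a two-sided exact permutation test over the 252 labelings of the mice gave p = 0.389. Myh11 (chromosome 16, 14194535 to 14291372, minus strand), the smooth muscle myosin heavy chain a standard marker of mature smooth muscle, was at 20.2, 19.0, 25.5, 24.1 and 16.7 CPM with NR treatment and at 15.1, 35.1, 17.6, 16.8 and 16.4 CPM without. Here too mouse 2 of the non-treated group was the highest of the 10, and the other 4 lay within 15.1 to 17.6 CPM. Its log2 fold change was 0.06 (SE 0.23, exact permutation p = 0.675, edgeR adjusted p = 0.941).

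Cnn1 (chromosome 9, 22099216 to 22109630, plus strand) encodes calponin, an inhibitor of the actomyosin ATPase found mainly in smooth muscle. It stood at 1.73, 1.30, 2.29, 2.27 and 0.752 CPM in NR-treated mice and at 0.645, 6.06, 1.90, 0.838 and 0.929 CPM in non-treated mice, again with the highest value in non-treated mouse 2. Its log2 fold change was -0.31 with a 95% interval from -1.61 to 1.00 (SE 0.59, exact permutation p = 0.897, edgeR adjusted p = 0.878). The coefficient of variation was 110% among non-treated mice, and without mouse 2 the log2 fold change was 0.63. Tagln (chromosome 9, 45929619 to 45936058, minus strand), which encodes the actin-bundling protein transgelin or SM22, was at 0.867, 1.16, 1.21, 0.611 and 0.579 CPM with NR and at 0.596, 1.03, 0.364, 0.794 and 0.511 CPM without. The groups overlapped, and the log2 fold change was 0.43 (SE 0.33, exact permutation p = 0.238, edgeR adjusted p = 0.677). Of the exonic bases of Tagln, 67.9% are shared with genes on the opposite strand, 1241 of them with Gm48529, which had 10 to 36 reads per library. The counting took no account of strand, and reads from shared bases cannot be assigned, so the level of Tagln is uncertain and may be too low.

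Smtn and Mylk completed the contractile genes. Smtn (chromosome 11, 3517523 to 3540612, minus strand) encodes smoothelin, an actin-binding protein of contractile smooth muscle with forms in other tissues. It stood at 104, 71.1, 100.3, 72.1 and 109 CPM in NR-treated mice and at 90.5, 79.3, 68.5, 67.7 and 79.4 CPM in non-treated mice. NR-treated mice 1, 3 and 5 exceeded the whole non-treated group, and mice 2 and 4 lay among it. The difference was 0.24 on the log2 scale (SE 0.14, exact permutation p = 0.167, edgeR adjusted p = 0.582). Smtn passed an unadjusted p of 0.05 in edgeR's test without NR-treated mouse 2 (0.33), NR-treated mouse 4 (0.33) or non-treated mouse 1 (0.31). Without NR-treated mice 3 and 5, the pair with high skeletal muscle genes, its log2 fold change was 0.11. Mylk (chromosome 16, 34745210 to 35002420, plus strand), the myosin light chain kinase that starts contraction, was at 48.0, 42.7, 40.8, 49.3 and 46.9 CPM with NR and at 50.4, 57.2, 46.9, 43.5 and 43.2 CPM without. Mouse 2 of the non-treated group was once more the highest. NR treatment went with a log2 fold change of -0.08 (SE 0.09, exact permutation p = 0.413, edgeR adjusted p = 0.767).

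Rgs5 (chromosome 1, 169655501 to 169695813, plus strand) was the member with the smallest p. It stood at 118, 131, 118, 128 and 97.0 CPM in NR-treated mice, and at 135, 138, 130.4, 139 and 133 CPM in non-treated mice. NR-treated mice 1, 3, 4 and 5 were below every non-treated mouse, and mouse 2 was above only the lowest of them, non-treated mouse 3. The coefficient of variation was 2.71% among non-treated and 11.4% among NR-treated mice. The log2 fold change was -0.19 (SE 0.07), a ratio of 0.878 (95% interval 0.785 to 0.982), with an adjusted p of 0.476 in edgeR's test. The exact two-sided permutation test gave p = 0.016, where 0.00794 is the smallest it can give. The difference did not pass the threshold after adjustment over all genes. At an unadjusted p of 0.05 in edgeR's test Rgs5 passed with all mice, and it no longer passed without NR-treated mouse 1 (-0.18), NR-treated mouse 3 (-0.18), non-treated mouse 2 (-0.17) or non-treated mouse 4 (-0.17). It still passed without NR-treated mouse 5, the lowest value, at -0.11, but not without NR-treated mice 3 and 5 together, at -0.09.

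The other pericyte members differed little between groups. Pdgfrb, on chromosome 18, stood at 113, 99.6, 112, 115 and 116 CPM with NR and at 110.5, 93.6, 112, 115 and 111 CPM without, and mouse 2 was the lowest of its group in both. Its log2 fold change was 0.04 with a 95% interval from -0.11 to 0.18 (SE 0.06, exact permutation p = 0.5, edgeR adjusted p = 0.868). Cspg4 (chromosome 9, 56865033 to 56899870, plus strand) encodes the proteoglycan NG2, which oligodendrocyte precursors carry as well. It was at 22.02, 16.4, 20.6, 19.7 and 21.2 CPM in NR-treated and at 22.4, 16.9, 18.8, 20.9 and 20.8 CPM in non-treated mice, with mouse 2 again the lowest of each group. The means were 19.97 ± 2.16 and 19.96 ± 2.13 CPM (SD, n = 5 each), and the 95% interval of the log2 fold change ran from -0.22 to 0.22. Notch3 (chromosome 17, 32120820 to 32166880, minus strand) was at 39.9, 34.0, 43.8, 42.0 and 43.2 CPM with NR and at 40.8, 40.4, 39.0, 42.0 and 42.5 CPM without. NR-treated mouse 2 was the lowest of all 10, and the interval of the log2 fold change ran from -0.17 to 0.14 (exact permutation p = 0.881, edgeR adjusted p = 0.964).

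**Figure D1:**
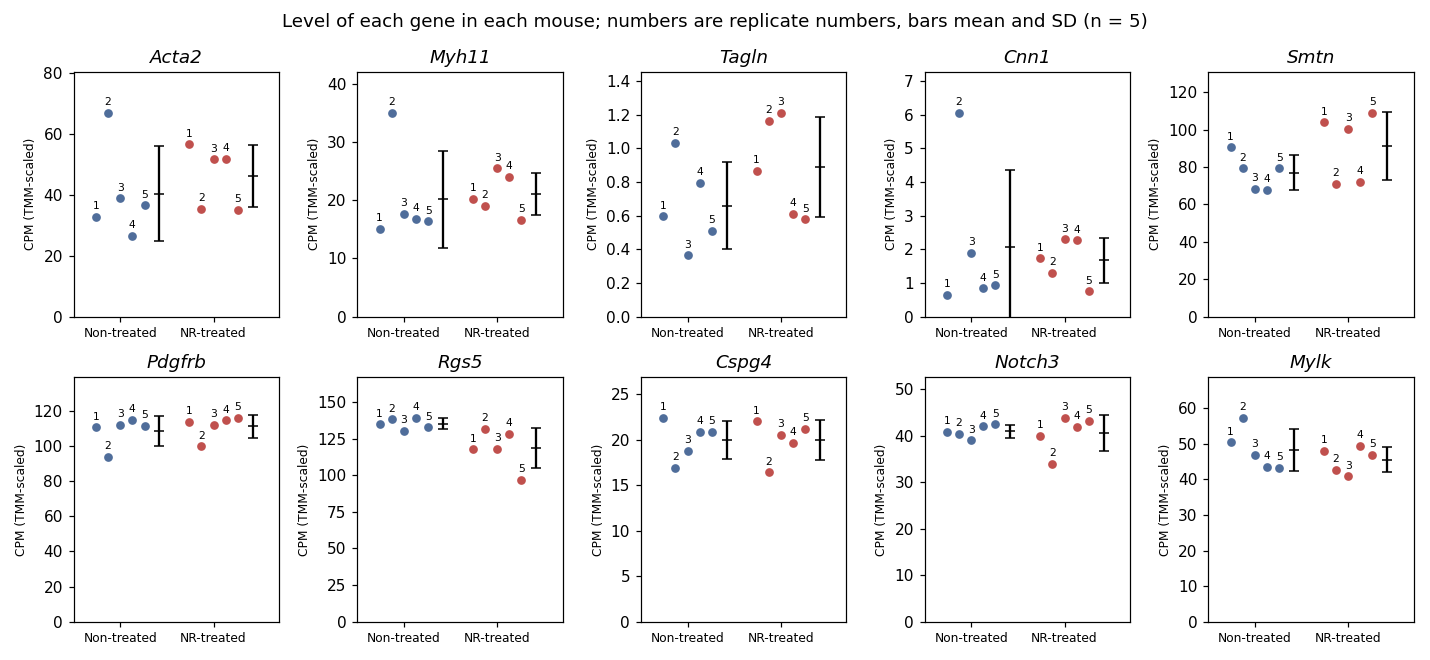
Level of each of the 10 genes in each mouse, in CPM after TMM scaling, on an axis that starts at 0. Blue points are non-treated and red points NR-treated mice, numbered by replicate, and bars give the mean and SD of 5 mice (the lower end of the bar of Cnn1 lies below 0 and is cut off). Non-treated mouse 2 is the highest point for Acta2, Myh11, Cnn1 and Mylk, and 4 NR-treated mice lie below all non-treated mice for Rgs5.

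Across the members, 0 of 10 passed an adjusted p of 0.05 in edgeR's test, as did 0% of all 18329 tested genes. At an unadjusted p of 0.05, 0 of 10 members were higher with NR treatment, against 4.83% of all tested genes, and 1 of 10, Rgs5, was lower, against 4.88% of all. With plain library sizes in place of TMM, the balance over all genes moved from 886 higher and 894 lower to 1188 higher and 574 lower. None of the 10 had groups that did not overlap, against 1.65% of all tested genes. With DESeq2, 0.539% of all genes with an adjusted p passed 0.05 and 0 of 10 members did, with Rgs5 at an adjusted p of 0.408. The median log2 fold change was 0.02 over the members, of which 6 of 10 were positive, and -0.01 over all tested genes, of which 47.1% were positive. Over the 6 smooth muscle members the median was 0.13 and over the 4 pericyte members -0.01. These counts lie near the background, and for 8 of the 10 members the 95% interval of the ratio reached no further than the bounds 0.737 and 1.64. The exceptions were Tagln, from 0.823 to 2.22, and Cnn1, from 0.327 to 2.00.

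**Figure D2:**
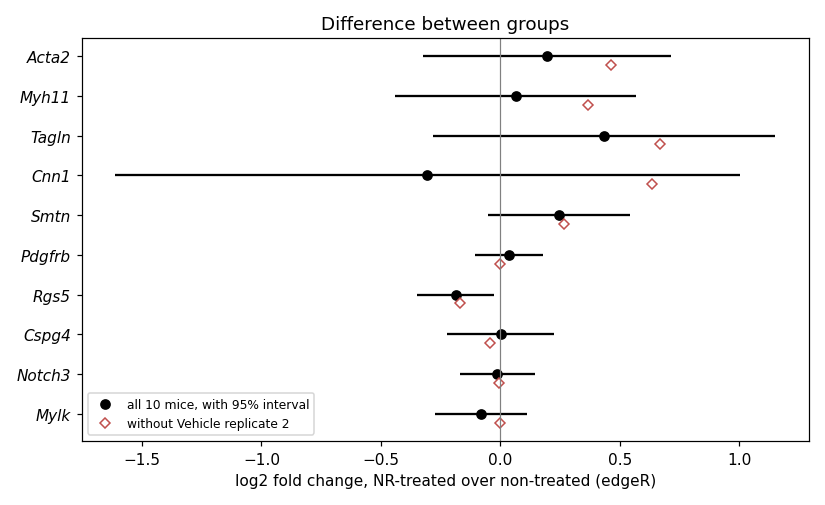
Log2 fold change of each gene, NR-treated over non-treated, from edgeR. Filled circles with lines give the value and 95% interval over all 10 mice, and open diamonds give the value without non-treated mouse 2, which moves Acta2 from 0.19 to 0.46, Myh11 from 0.06 to 0.37 and Cnn1 from -0.31 to 0.63.

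The comparison of Acta2, Myh11 and Cnn1 rested on non-treated mouse 2. Its level was 1.99 times the mean of the other 4 non-treated mice for Acta2, 2.13 times for Myh11, 5.62 times for Cnn1 and 1.24 times for Mylk, and it was the highest of all 10 mice for these genes. For Tagln the ratio was 1.82 and for Smtn 1.04, and Smtn had a log2 fold change of 0.24 with all mice and 0.27 without this mouse. Pdgfrb and Cspg4 went the other way, with ratios of 0.836 and 0.817, while Rgs5 and Notch3 had 1.03 and 0.983. Without this mouse, edgeR's test gave Acta2 a log2 fold change of 0.46 and Myh11 one of 0.37, both at an unadjusted p under 0.05, so that 2 of 10 members were higher at that threshold, against 5.48% of all genes tested in that fit. NR-treated mice 1, 3 and 4 then lay above the other 4 non-treated mice for Acta2, and mice 1 to 4 did so for Myh11. Tagln had 0.67 and Cnn1 0.63, and neither passed that threshold. No member passed an adjusted p of 0.05 in any of the 10 fits that left out 1 mouse, with the smallest, 0.272, in Rgs5 without NR-treated mouse 2. With NR-treated mice 3 and 5 left out too, Acta2 had 0.51 and Myh11 0.37, and both still passed the unadjusted threshold, which 2.46% of all genes passed on the higher side.

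The same library led in gland genes. Bpifb1, a secreted antibacterial protein of mucous and serous glands and the most abundant gene of that list, was at 28396 CPM in non-treated mouse 2, at 2.91 to 18.2 CPM in the other non-treated mice and at 24.3, 319, 295, 2373 and 47.9 CPM in NR-treated mice 1 to 5. Lipf and Muc5b, a secreted lipase and a mucin, stood at 11382 and 4265 CPM in that mouse. Glands are also wrapped by contractile myoepithelial cells, which use Acta2, Myh11 and Cnn1. A list of 7 myoepithelial genes, likewise written after values were seen, summed to 125 CPM in that mouse and to 78.1 to 102 CPM in the other 9, of which Myl9 made the most. Its keratin Krt14 was at 6.96 CPM there and at 0.671 to 2.17 CPM elsewhere, Trp63 at 1.44 CPM against 0.882 to 2.58 CPM, and Oxtr was at 0. With all mice, 2 of 12 tested gland genes were lower at the unadjusted threshold (median log2 fold change -2.79). Without non-treated mouse 2, 7 were higher and 0 lower (median 3.14), and the median of 6 tested myoepithelial genes was 0.59. Without NR-treated mice 3 and 5 too, 8 gland genes were higher (median 3.70) and the myoepithelial median was 0.57. Leaving out non-treated mouse 2 thus turned the gland difference to higher with NR treatment. The part of gland or myoepithelial RNA in the levels of Acta2, Myh11 and Cnn1 was not tested.

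**Figure D3:**
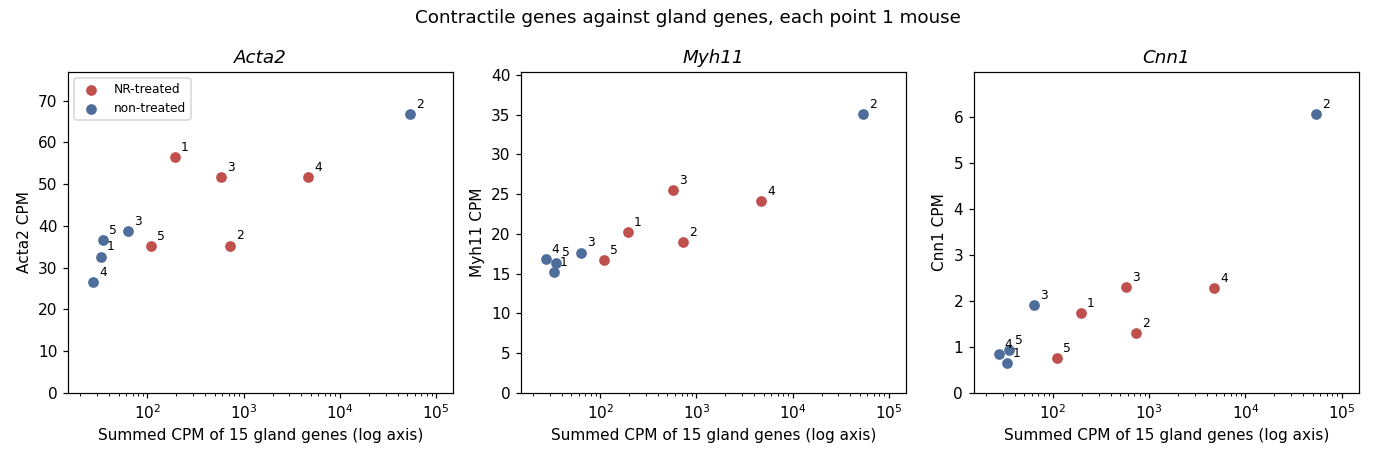
Levels of Acta2, Myh11 and Cnn1 (CPM, linear axes from 0) against the summed CPM of 15 gland genes (log axis), each point 1 mouse with its replicate number, NR-treated in red and non-treated in blue. Non-treated mouse 2, at a sum of 54329 CPM, is the highest point in all 3 panels, and the other non-treated mice lie to the left of every NR-treated mouse.

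How the members varied together was described by the correlation of their log2 CPM over the 10 mice after the mean of each group had been removed. The points share library, depth and scaling, so these values are a description. Myh11 and Cnn1 were the most alike (Pearson's r = 0.95, Spearman's rho = 0.98), followed by Acta2 with Cnn1 (r = 0.90) and Acta2 with Myh11 (r = 0.86). Without non-treated mouse 2 the values over 9 mice were 0.87, 0.75 and 0.64. Smtn did not move with these 3 genes, with r between -0.18 and 0.15, and between -0.42 and 0.14 without non-treated mouse 2, although it is counted among the same markers. Over the 15 pairs of smooth muscle members the median r was 0.39 with 11 positive, and -0.06 without non-treated mouse 2.

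Among the pericyte members, Pdgfrb and Cspg4 had r = 0.83 (rho = 0.38), Cspg4 and Notch3 r = 0.67 (rho = 0.42) and Pdgfrb and Notch3 r = 0.58 (rho = 0.33). Rgs5 had negative values with Pdgfrb, Cspg4 and Notch3, with r of -0.42, -0.46 and -0.51 and rho of -0.38, -0.47 and -0.20. These values rested in large part on NR-treated mouse 2, the lowest NR-treated mouse for Pdgfrb, Cspg4 and Notch3 and the highest for Rgs5. Without it, Pdgfrb and Cspg4 had r = 0.72 (rho = 0.40), whereas Cspg4 and Notch3 had 0.20 and Pdgfrb and Notch3 0.17. Rgs5 then had -0.18, -0.20 and -0.16 with the same 3 genes. Non-treated mouse 2 deviated from its group mean by -0.21 for Pdgfrb and -0.23 for Cspg4, the lowest of its group for both. For Pdgfrb the mice other than number 2 of each group deviated by 0.01 to 0.09. The lowest value of Rgs5 was with Smtn (r = -0.69), at -0.71 without non-treated mouse 2 and -0.58 without NR-treated mouse 2. Over the 6 pairs within the pericyte members the median was 0.08, and 0.0032 without NR-treated mouse 2. Over the 24 pairs between the sets it was -0.12, and it turned to 0.21 without non-treated mouse 2 and moved to -0.39 without NR-treated mouse 2.

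**Figure D4:**
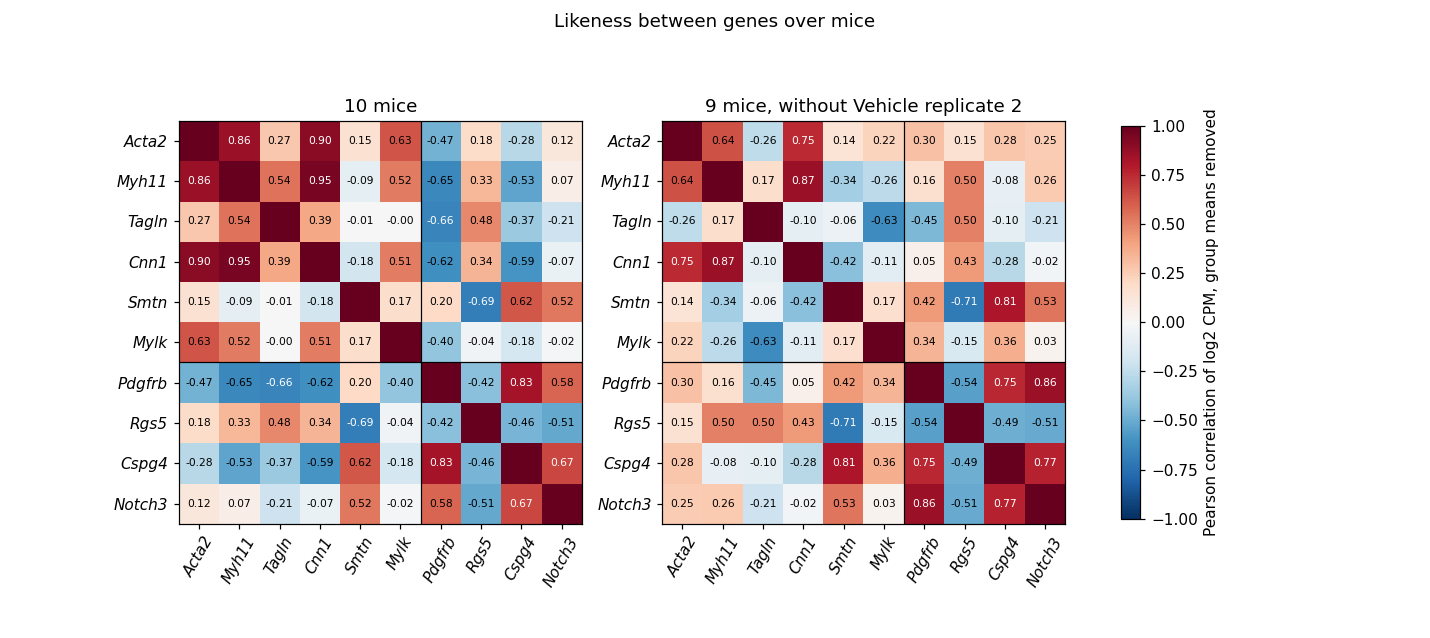
Pearson correlation of log2 CPM between each pair of the 10 genes over mice, with group means removed, on a colour scale from -1 (blue) to 1 (red), for 10 mice on the left and without non-treated mouse 2 on the right. Lines separate the 6 smooth muscle genes from the 4 pericyte genes. The block of Acta2, Myh11 and Cnn1 runs from 0.86 to 0.95 on the left and from 0.64 to 0.87 on the right, and Rgs5 is blue against Pdgfrb, Cspg4 and Notch3 in both.

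Among all other tested genes, those most like the mean of the 6 smooth muscle members over the 10 mice were 0610040J01Rik (r = 0.97), Myl9 (r = 0.96), 1600014C10Rik (r = 0.96), Bhlha15 (r = 0.94) and Zfp706 (r = 0.94). Myl9 encodes the regulatory light chain of smooth muscle myosin, and Bhlha15 is a transcription factor of secretory cells. Bhlha15 stood at 23.6 CPM in non-treated mouse 2 and between 0.695 and 2.75 CPM in the other 9 mice. The genes most like the mean of the 4 pericyte members were Arsi (r = 0.95), Adgrg7 (r = 0.94), Gm16153 (r = 0.92), Sec1 (r = 0.92) and Gm11400 (r = 0.91). Their rho values were 0.82, 0.54, 0.95, 0.81 and 0.62. Arsi, an arylsulfatase, was the most abundant at 3.53 to 5.45 CPM, and Gm11400 had 3 to 14 and Adgrg7 11 to 36 reads per library. Both sets of 5 were picked as the highest of all tested genes over 10 mice, so high values of r come in part from the choice. Without non-treated mouse 2, the 5 genes alike the smooth muscle members had r of 0.68 to 0.88 over 9 mice, and without NR-treated mouse 2 the 5 alike the pericyte members had 0.82 to 0.91. The mean of 12 gland genes had r = 0.89 (rho = 0.76) with the smooth muscle mean, and 0.41 (rho = 0.20) without non-treated mouse 2. For 6 tested myoepithelial genes r was 0.87 (rho = 0.75), and 0.74 (rho = 0.88) without that mouse. These genes include Myl9, named above for its likeness to the same smooth muscle mean. The value is therefore in part built in and cannot tell myoepithelial cells from smooth muscle. The mean of 15 endothelial genes had r = 0.61 (rho = 0.72) with the pericyte mean, and 0.49 (rho = 0.58) without NR-treated mouse 2.

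The wider contractile apparatus was read from 20 further genes, all tested. At an unadjusted p of 0.05, 5 of 20 were higher with NR treatment and 0 were lower, the median log2 fold change was 0.09, and 0 passed after adjustment. They were Casq2 (0.93, SE 0.27), Des (1.63, SE 0.62), Tpm2 (0.96, SE 0.37), Tpm1 (0.31, SE 0.12) and Crip1 (0.43, SE 0.18). The intermediate filament gene Des stood at 6.79, 7.56, 74.1, 13.4 and 40.7 CPM in NR-treated mice and at 13.6, 10.8, 7.12, 6.70 and 8.08 CPM in non-treated mice. NR-treated mice 3 and 5 were also the highest for the tropomyosin gene Tpm2, at 111 and 61.5 CPM against 19.3 to 42.0 CPM in the other 8, and for the calsequestrin gene Casq2, at 3.25 and 3.24 CPM. Des, Tpm1, Tpm2 and Casq2 are also genes of striated muscle, and mice 3 and 5 are those with the high sum of skeletal muscle genes. Without these mice 0 of 20 genes were higher at that threshold, against 2.46% of all genes. Des then had 0.02, Tpm2 0.27 and Tpm1 0.22, while Casq2 kept 0.48 and Crip1 0.47. This fit also had fewer mice, so a lost threshold need not mean a smaller difference. Leaving out each mouse in turn, the number higher ranged from 1 to 7 of the 20. It was 1 without NR-treated mouse 3 (3.62% of all genes in that fit) or without non-treated mouse 4 (4.29%). It was 3 without non-treated mouse 5 (4.91%) and 7 without NR-treated mouse 2 (7.61%). Myl6, the most abundant gene of the list, had 0.03 (SE 0.07, adjusted p = 0.905).

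Of 16 transcription factors of the smooth muscle programme in the counts, 13 were tested, with 0 higher, 1 lower at an unadjusted p of 0.05 and a median of -0.06 on the log2 scale. The T-box repressor Tbx2 was the lower one, at 114, 156, 119.9, 129 and 124 CPM in NR-treated mice and at 158, 137, 195, 222 and 173 CPM in non-treated mice, with NR-treated mice 1, 3, 4 and 5 under the whole non-treated range. Its log2 fold change was -0.46 (SE 0.13, edgeR adjusted p = 0.415). Tbx2 was the most abundant gene of this list. Non-treated mice 3 and 4, the highest for Tbx2, also had the highest sums of cochlear markers, 7781 and 7111 CPM. NR-treated mouse 2, the highest of its group for Tbx2, had a sum of 5815 CPM, against 3817 to 4303 CPM in the other NR-treated mice. The part of other cochlear cells in the level of Tbx2 was not tested. Myocd, the coactivator that drives contractile genes with serum response factor, had 0 to 4 reads per library and was not tested, and Srf itself had -0.01 (SE 0.08).

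Among 21 tested receptors and ion channels of mural cells, 1 was higher and 1 lower at that threshold, with a median of 0.04. The lower one was Adra1b, an alpha-1 adrenoceptor, at 8.72 to 13.6 CPM with NR and 13.2 to 18.05 CPM without (-0.42, SE 0.13). The higher one was the related Adra1a, at 7 to 40 reads per library (1.01, SE 0.35). The most abundant, the integrin gene Itga8, had 0.12 (SE 0.16, adjusted p = 0.817). Of 21 tested pericyte-enriched genes, 1 was higher and 1 lower, with a median of 0.05. Mcam, the adhesion molecule CD146, had 0.44 (SE 0.16, adjusted p = 0.461), and NR-treated mice 1, 3 and 5 exceeded the whole non-treated group. Atp13a5, a transporter gene of brain pericytes, had -0.92 (SE 0.32, adjusted p = 0.448) and stood highest in non-treated mice 3 and 4, at 38.1 and 60.2 CPM, against 13.9 to 29.4 CPM in the other 8. Slco3a1, the most abundant, had -0.10 (SE 0.12, adjusted p = 0.784).

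Of the signals that mural cells receive, 0 of 6 genes for PDGF ligands and receptors passed an unadjusted p of 0.05 in either direction (median -0.04). Pdgfra, the most abundant, had -0.11 (SE 0.11, adjusted p = 0.763). Of 18 tested Notch genes, 3 were higher and 1 was lower (median 0.03). Dll4, a ligand on arterial endothelium, stood at 6.89, 8.46, 7.96, 5.98 and 7.41 CPM with NR and at 4.96, 5.48, 4.13, 5.78 and 6.18 CPM without, so that all NR-treated mice but mouse 4 exceeded the non-treated range (0.47, SE 0.14, edgeR adjusted p = 0.423). The target gene Hey1 had 0.22 (SE 0.09) and the ligand Jag2 0.16 (SE 0.07), while Lfng, a glycosyltransferase that modifies Notch, had -0.22 (SE 0.09). Notch2, the most abundant, had -0.13 (SE 0.11, adjusted p = 0.714). Of 20 genes of mural cell recruitment and TGF-beta signalling, the sphingosine-1-phosphate receptor S1pr1 was higher (0.19, SE 0.08) and the coreceptor Tgfbr3 lower (-0.22, SE 0.06), with a median of 0.02. Tgfbr2, the most abundant, had -0.10 (SE 0.13, adjusted p = 0.809). Leaving out each mouse in turn, the number of genes higher at an unadjusted p of 0.05 ranged from 1 to 5 for the pericyte-enriched list, 1 to 4 for Notch and 1 to 3 for receptors and channels, and the number lower from 0 to 2 in these lists. In each list 0 genes passed an adjusted p of 0.05. Over all tested genes the shares at the unadjusted threshold were the 4.83% higher and 4.88% lower given above.

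**Figure D5:**
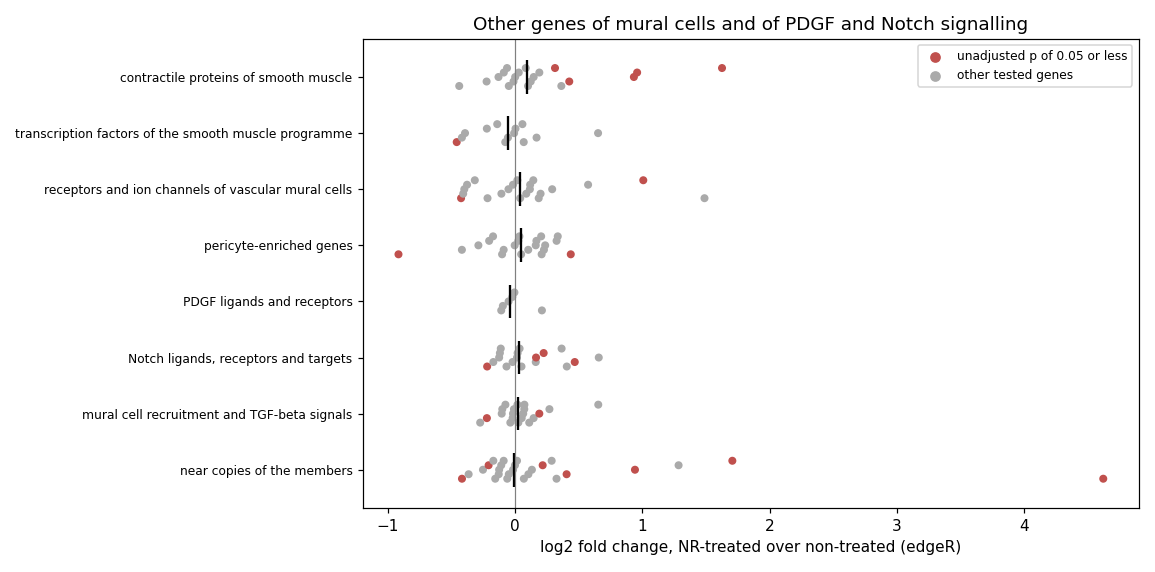
Log2 fold change, NR-treated over non-treated, of every tested gene in 8 lists around mural cells, each point 1 gene and each black line the median of its list. Red points have an unadjusted p of 0.05 or less in edgeR's test and 0 have an adjusted p of 0.05. The medians lie between -0.06 and 0.09, and the point at 4.62 is Acta1.

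Paralogs of the members bear on how far reads can be assigned. Of 26 tested, 5 were higher and 2 lower at an unadjusted p of 0.05, with a median of -0.01. Sequence identity was read only for actins with a coding sequence as long as that of Acta2, so Actg2 and Actb were not compared. Acta1, the skeletal muscle actin, has a coding sequence of 1134 bases that is 85.4% identical to that of Acta2, with a longest identical stretch of 29 bases. It stood at 1.01, 6.85, 287, 29.6 and 124 CPM in NR-treated and at 12.2, 3.10, 1.86, 0.926 and 0.511 CPM in non-treated mice (4.62, SE 1.32, edgeR adjusted p = 0.42). Acta2 stood at 51.6, 35.1 and 51.8 CPM in NR-treated mice 3, 5 and 4, the 3 with the most Acta1, and at 35.3 and 56.5 CPM in NR-treated mice 2 and 1. The kinase gene Mylk2 of skeletal muscle (1.71, SE 0.60) was highest in the same NR-treated mice 3 and 5, at 2.77 and 3.13 CPM. Without these mice the log2 fold change was 1.78 for Acta1 and 0.49 for Mylk2, neither at an unadjusted p of 0.05. Tagln3, a neuronal relative of Tagln, had 0.40 (SE 0.12), Rgs8 0.94 (SE 0.37) and Myh14 0.22 (SE 0.09). Kit, a receptor of the family of Pdgfrb, was at 46.4 to 55.3 CPM with NR and at 56.7 to 62.7 CPM without, so that the groups did not overlap (-0.21, SE 0.06, edgeR adjusted p = 0.423), and Cspg5 had -0.42 (SE 0.16). Actb, the most abundant, had 0.07 (SE 0.10).

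Other cell types were read beside these results. Beside the counts of these lists at an unadjusted p of 0.05 in edgeR's test stand 4.83% of all tested genes higher and 4.88% lower. Of 15 endothelial genes, 3 were higher at that threshold (median 0.07), and 14 had a positive log2 fold change, against 47.1% of all genes. Their sums were 600.4 to 698 CPM in NR-treated and 540.1 to 686 CPM in non-treated mice, and Eng, the most abundant, lay between 79.9 and 97.6 CPM. Of 14 tested skeletal muscle genes 10 were higher (median 2.72), although the most abundant, Pygm, had 0.04 (SE 0.13). Without NR-treated mice 3 and 5, 1 was higher (median 0.33), against 2.46% of all genes. Of 11 tested adipocyte genes 7 were higher (median 1.75), with sums of 208 to 442 CPM with NR and 184 to 215 CPM without and Pnpla2 the most abundant. The adipocyte sum of 442 CPM was that of NR-treated mouse 2, and the other NR-treated mice had 208 to 277 CPM. Without that mouse 7 of 11 adipocyte genes were still higher, against 7.61% of all genes. Of 14 cochlear markers 7 were lower (median -0.59), with the highest sums, 7781 and 7111 CPM, in non-treated mice 3 and 4. That count was 2 without either of these 2 mice, against 3.01% of all genes lower without mouse 3 and 4.12% without mouse 4. It was 10 without non-treated mouse 1 (5.71%) or 2 (5.03%), and 1 without NR-treated mice 3 and 5 (2.04%). Of 12 fibroblast and fibrocyte genes 4 were higher and 1 lower, of 11 genes of oligodendrocyte precursors and Schwann cells, led by Mbp, 0 and 1, and of 10 bone genes, led by Ibsp, 0 and 0. None of these genes was at 0 in all mice. The part of these tissues in the level of Rgs5, Smtn or any other member was not tested.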

How the data were processed

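RNA-seq of the cochlea was analysed in 5 NR-treated and 5 non-treated mtKeima mice. The deposited values are whole-number counts of reads per gene, which the authors' sequencing provider made with STAR 2.6.1d on mm10 and featureCounts 1.5.0 in default mode, without strand and without normalization. The submitters' notes also name fastp and CASAVA. The annotation release is not given in the sources used here, and 54409 of 54532 gene identifiers were found in GENCODE M21. The filter filterByExpr of edgeR 4.0.16 (R 4.3.3) kept 18329 genes, from libraries of 17060379 to 24419230 counts. They were scaled by TMM and tested with glmQLFit and glmQLFTest without covariates, and p-values were adjusted by Benjamini-Hochberg over all of them. CPM are TMM-scaled, and log2 CPM for correlations used a prior count of 2. Exact permutation tests were two-sided. The tests were checked on simulated data with 200 changed genes.

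The 10 members, the lists and the rule for naming genes were chosen with earlier results of these data known. The rule named all members, up to 3 genes per direction and list with the smallest p at an unadjusted p of 0.05, the most abundant gene of each list, and the 5 genes most alike each set. Tpm1, Crip1, Rgs8, Myh14, Srf, Myocd, Lipf, Muc5b, Krt14, Trp63, Oxtr and Gm48529 were named after their values were seen. Alternatives were DESeq2 1.42.0, other scaling, filters and prior count, the replicate number as a block, leaving out each mouse, and sets of mice added after seeing the data. The labels do not say whether mice shared litters or cages, so p-values measure the spread between these mice. No pair of libraries was alike within counting noise. Promoters come from RefSeq (GRCm38.p6) and were searched with python 3.11.15. The reads themselves were not analysed here.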

Additional observations from a re-analysis of the deposited data

Results flagged for a closer look

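Dixon's test of the most extreme mouse in each group of 5 marked 4 of 20 groups of member values, where chance marks about 1 in 20. The 20 groups come from the same libraries and are not independent, and most marks fell on non-treated mouse 2, so that rate is no measure for the 4 marks together. In the non-treated group, mouse 2 lay far above the others for Myh11, at 35.1 CPM, and for Cnn1, at 6.06 CPM. The same mouse lay far below its group for Pdgfrb, at 93.6 CPM. NR-treated mouse 2 lay far below its group for Pdgfrb as well, at 99.6 CPM.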

How the results depend on the processing

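No member passed an adjusted p of 0.05 under any alternative, and Acta2, Tagln, Smtn and Rgs5 kept their direction wherever they were tested. Tagln was not tested under the filter of a CPM of at least 1 in at least 5 mice. Leaving out each mouse in turn, the number of members at an unadjusted p of 0.05 ranged from 0 to 2 higher and from 0 to 1 lower, that of all genes from 669 to 1414 higher and from 484 to 1059 lower, and that of all genes at an adjusted p of 0.05 from 0 to 1. The log2 fold change then ranged from -0.0207 to 0.368 for Myh11, -0.532 to 0.633 for Cnn1, -0.0017 to 0.0807 for Pdgfrb, -0.0423 to 0.0724 for Cspg4 and -0.0314 to 0.0525 for Notch3, and the median correlation within smooth muscle members from -0.0599 to 0.517, within pericyte members from 0.00321 to 0.132 and between the sets from -0.389 to 0.207. With plain library sizes 1188 genes were higher and 574 lower, and Notch3 had 0.0136. With all genes of at least 1 read 1414 were higher and Notch3 had 0.000449. DESeq2 called 105 genes at an adjusted p of 0.05. Without NR-treated mice 3 and 5, 0 members were lower, 460 genes were higher and 383 lower, and Cspg4 had -0.0304. Without those and non-treated mouse 2, 2 members were higher and 0 lower, 457 genes higher and 471 lower, and Cnn1 had 0.706, Pdgfrb -0.0266, Cspg4 -0.0875 and Mylk 0.0319. The cause was not tested. The same replicate numbers did not pair the mice, with correlations of deviations from -0.22 to 0.17 and only number 1 matching itself best. With the replicate number as a replicate block, Cnn1 had 0.106. Low counts limit Tagln (9 to 28 reads).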
